A study of Mus musculus with 14 samples.

Results

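The genes described here are 44 genes of the cell cycle and of DNA replication, listed by name for their known part in S phase, mitosis or cyclin activity. The list did not use a value of these data as a condition, but it was made with earlier results of these data known. All 44 were found in both deposited count tables, among 35976 gene symbols, and all 44 had 10 or more counts in at least 3 libraries, the condition for use, which 17365 symbols met. The data were 14 bulk RNA-seq libraries of supporting cells (SCs) from mouse cochlear explants. Every group, controls included, carried the Lfng-EGFP transgene, a reporter in which regulatory sequence of the Notch modifier gene Lfng drives green fluorescent protein, on a C57BL/6 background, and the EGFP-positive cells were sorted. Explants were taken at postnatal day 0 (P0 in the labels, P0 to P1 in the study's methods) or at P6, and were cultured for 24 hours with 2 µM compound E (CompE) or with its solvent DMSO. Compound E inhibits γ-secretase, the protease that releases the active fragment of Notch receptors. There were 4 CompE and 4 DMSO libraries at P0 and 3 of each at P6. By the paper's methods tissue of 4 organs was pooled in each tube, while its figure legend for these libraries gives a different number of cochleae. A library is therefore a pool and not an animal, and p-values measure the spread between these pools. The libraries of each replicate number shared a batch, and no batch held both ages, so age and batch cannot be told apart.

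Cell division is ordered by cyclins and their kinases. D cyclins with CDK4 or CDK6, and then cyclin E with CDK2, inactivate the retinoblastoma protein and free E2F factors, which switch on genes for DNA synthesis. Replication origins are licensed when CDC6 and CDT1 load the MCM2 to MCM7 helicase, and geminin, the product of Gmnn, binds CDT1 and blocks a second loading. Genes of G2 phase and mitosis are switched on later, by MYBL2, FOXM1 and their partners. SCs and hair cells (HCs) of the mouse cochlea leave the cell cycle before birth, and the SCs stay out of it in the undisturbed organ.

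These 2 programs differ in promoter sequence, and the promoters below show the letters that mark each. Of the 44 genes, 35 had at least 1 promoter window in the RefSeq set (GRCm38.p6, 250 bases before to 50 after the start site), for 38 windows. An E2F site was searched on both strands as TTTCCCGC, TTTGGCGC, TTTCGCGC or TTTGCCGC, a cell cycle homology region (CHR, the element of mitotic promoters) as TTTGAA or TTCGAA, and a CCAAT box as CCAAT. The E2F letters were in 9 of the 38 windows (23.7%, against 2.26% of all 32851 promoter windows), and 6 of the 8 licensing, MCM and Pcna genes with a window held them. None of the windows in the groups of mitotic kinase and checkpoint genes and of mitotic chromosome genes did. The kinase gene Cdk1, which was grouped with the E, A and B cyclins, did hold them. The CHR letters were in 16 windows (42.1% against 19.2%), among them 6 of the 7 genes for mitotic kinases, the spindle checkpoint and the anaphase-promoting complex, and 5 of the 5 genes for mitotic chromosomes and motors. The CCAAT letters were in 27 windows (71.1% against 37.4%). Both of the latter are short, which is why many promoters hold them. Shown are a helicase gene with the E2F letters, the mitotic kinase gene Cdk1 with all 3 kinds, and 2 mitotic genes with CHR and CCAAT letters. The last shown is Cdk6, a gene that changed with age. Its window lies inside the annotated gene, and none of the letters was found in it. Capitals mark the letters found, on either strand, and overlapping matches run together.
Mcm6, chr1:128359656-128359955, minus strand: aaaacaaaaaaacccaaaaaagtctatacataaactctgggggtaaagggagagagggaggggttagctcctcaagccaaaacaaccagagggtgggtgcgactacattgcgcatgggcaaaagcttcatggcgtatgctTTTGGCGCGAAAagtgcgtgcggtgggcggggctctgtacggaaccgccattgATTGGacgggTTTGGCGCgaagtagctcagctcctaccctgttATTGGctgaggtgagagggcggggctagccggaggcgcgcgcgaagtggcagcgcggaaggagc
Cdk1, chr10:69352863-69353162, minus strand: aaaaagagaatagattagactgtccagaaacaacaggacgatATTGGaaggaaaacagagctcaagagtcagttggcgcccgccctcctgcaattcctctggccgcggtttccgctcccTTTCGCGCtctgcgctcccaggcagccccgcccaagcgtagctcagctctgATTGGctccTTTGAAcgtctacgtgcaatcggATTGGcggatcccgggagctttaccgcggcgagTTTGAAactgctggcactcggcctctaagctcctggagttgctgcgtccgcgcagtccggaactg
Mki67, chr7:135716330-135716629, minus strand: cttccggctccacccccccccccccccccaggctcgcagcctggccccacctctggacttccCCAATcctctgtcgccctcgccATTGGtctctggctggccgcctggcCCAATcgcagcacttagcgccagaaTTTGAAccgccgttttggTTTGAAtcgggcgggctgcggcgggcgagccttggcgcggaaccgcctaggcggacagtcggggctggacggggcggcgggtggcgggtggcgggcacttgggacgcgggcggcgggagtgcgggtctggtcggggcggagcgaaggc
Top2a, chr11:99024140-99024439, minus strand: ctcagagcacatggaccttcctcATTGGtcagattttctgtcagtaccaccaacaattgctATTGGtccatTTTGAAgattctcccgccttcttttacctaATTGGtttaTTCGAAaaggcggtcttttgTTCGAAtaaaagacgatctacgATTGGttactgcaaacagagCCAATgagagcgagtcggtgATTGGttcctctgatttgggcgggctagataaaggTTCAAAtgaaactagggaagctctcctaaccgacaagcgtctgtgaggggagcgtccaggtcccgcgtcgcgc
Cdk6, chr5:3343643-3343942, plus strand: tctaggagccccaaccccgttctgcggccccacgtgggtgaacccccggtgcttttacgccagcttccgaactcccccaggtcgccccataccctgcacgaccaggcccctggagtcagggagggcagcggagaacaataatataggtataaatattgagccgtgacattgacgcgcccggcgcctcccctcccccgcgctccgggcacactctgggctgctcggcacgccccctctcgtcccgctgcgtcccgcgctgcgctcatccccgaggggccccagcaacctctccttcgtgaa

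The libraries held 19415066 to 44430063 counts each, and 3 counts, taken as the detection floor, corresponded to at most 0.155 reads per 1000000 counts of the library (RPM). SC marker genes (8) were abundant as a sum in every library, but the sum differed between the groups. It was 8709 to 9786 RPM in P0 DMSO 2 to 4, 4897 RPM in P0 DMSO 1 and 4455 to 5023 RPM in P0 CompE. At P6 it was 2596 to 5864 RPM in DMSO and 1642 to 3283 RPM in CompE. Single markers were as low as 3.24 RPM (Matn4 in P6 CompE 3). The sum includes Lfng, which the paper lists among Notch targets lowered by compound E. At P0, Lfng, Jag1, Sox2, Fabp7 and Matn4 were each separate between the treatments and lower with CompE. Jag1 was at 1233 to 2839 RPM in P0 DMSO and 793 to 970 RPM in P0 CompE. Prox1, Fgfr3 and Rorb overlapped, with Rorb at 157 to 284 RPM in P0 DMSO and 253 to 351 RPM in P0 CompE. Markers of other cells varied between libraries too. Among genes of the greater epithelial ridge of the cochlea, Tectb was at 6478 to 9409 RPM in P0 DMSO and 12856 to 13596 RPM in P0 CompE. At P6 it was at 12216 to 19939 RPM. Otoa was also separate between the P0 treatments and higher with CompE, while Tecta, Epyc, Calb1 and Crabp1 overlapped. Macrophage markers (6 genes) summed to 0.976 to 10.1 RPM at P0 and reached 32.6 RPM in P6 DMSO 3 and 77.2 RPM in P6 CompE 3. Mesenchyme markers (6 genes) summed to 919 to 1341 RPM at P0 and 884 to 3958 RPM at P6. Most of that sum was Lum (688 to 3210 RPM over all libraries) and Dcn (140 to 588 RPM). Col3a1 was at 2.13 to 194 RPM, Pou3f4 at 0.501 to 22.9 RPM, and Col1a1 and Postn at most at 9.76 and 9.37 RPM. HC markers (8 genes) summed to 603 to 1352 RPM in P0 DMSO, 1168 to 2168 RPM in P0 CompE and 377 to 1101 RPM at P6. Lfng itself, whose sequences drive the sorted reporter, was at 2791 ± 1123 RPM (SD, n = 4) in P0 DMSO and 912 ± 162 RPM (n = 4) in P0 CompE. In sorted bulk samples fewer cells of a type and less RNA per cell cannot be told apart, and this holds for all values below.

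The 44 genes covered a wide range of levels. Per length of transcript (reads per kilobase of the longest coding transcript per 1000000, RPKM), Cdk4 led in P0 DMSO at 135 ± 20.7 RPKM (SD, n = 4), followed by Ccnd3 at 65.6 ± 6.36 and Cdk2 at 25.5 ± 7.76. Gmnn was next at 13.1 ± 5.32 RPKM. Its level was within the spread of that of its neighbours Mcm2 (9.68 ± 2.98 RPKM) and Pcna, the replication clamp (9.42 ± 2.92). At the other end stood Mki67, which encodes the proliferation marker Ki-67, at 0.0450 ± 0.0325 RPKM, next to the checkpoint kinase gene Bub1 at 0.0508 ± 0.0503 and the centromere gene Cenpf at 0.0745 ± 0.0478, which did not differ beyond their spread. In P6 DMSO the first 3 genes kept their order (106 ± 12.8, 54.2 ± 6.80 and 21.1 ± 1.81 RPKM, n = 3), Pcna came next at 13.8 ± 0.786, and Gmnn had rank 14 at 3.10 ± 1.33 RPKM. Only 27 of the 44 genes had 10 or more counts in all 14 libraries, and 13 were at 0 counts in at least 1, and the mitotic genes rest on few reads. Genes on the other strand overlap Cdk4 (Tspan31), Ccnd3 (Bysl), Cdk2 (Pmel), Mcm7 (Cops6 and Ap4m1) and others of the 44. Reads of such genes may not be separable.

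**Figure D1:**
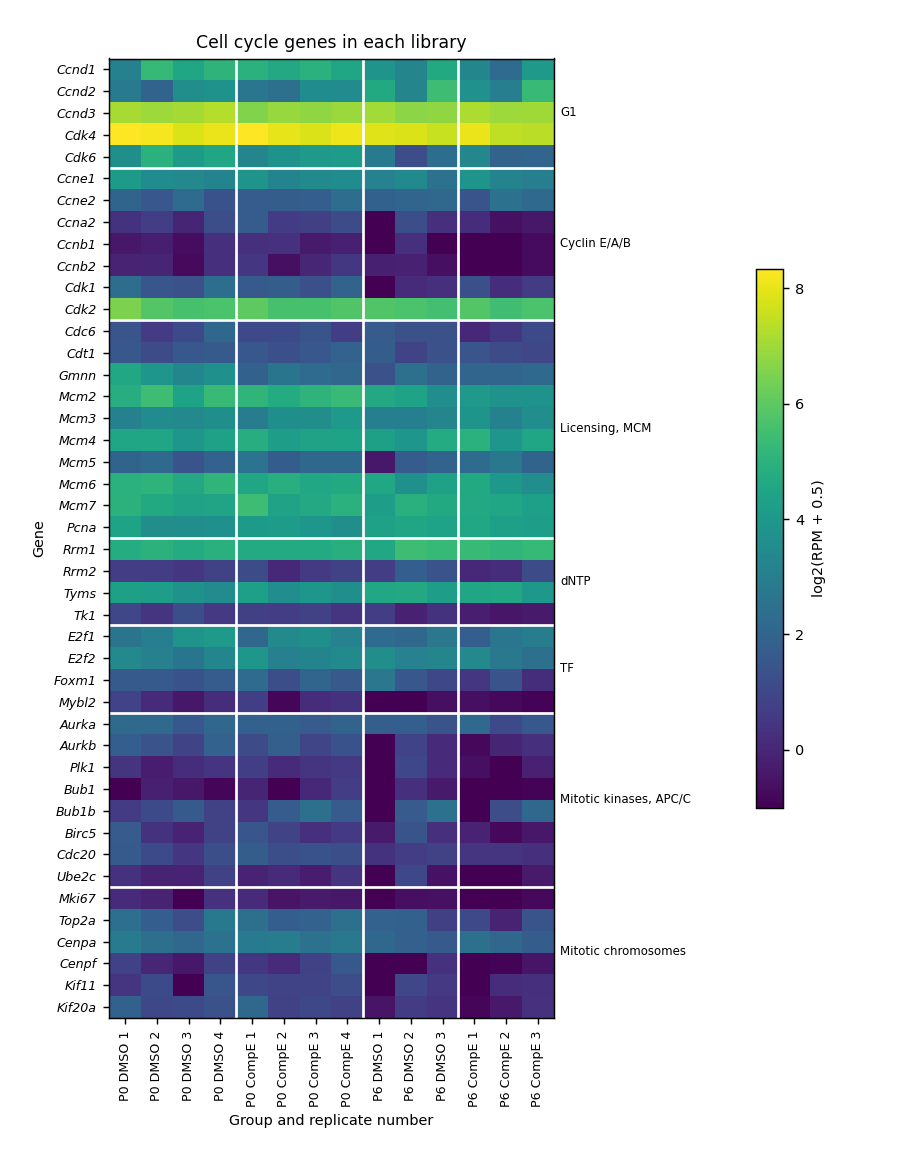
Level of each of the 44 genes in each of the 14 libraries, as log2(RPM + 0.5) in colour; rows are genes in role order, columns are libraries by group and replicate number, and white lines divide the roles and groups. Cdk4 and Ccnd3 were the brightest rows in all 4 groups, and most of the mitotic rows at the bottom were dark, as were Ccna2, Ccnb1, Ccnb2 and Mybl2.

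The levels of the named genes in each library were as follows, all in RPM and in replicate order. Cdk4, the main G1 kinase here, was at 323, 299, 225 and 266 in P0 DMSO, 318, 251, 230 and 273 in P0 CompE, 234, 231 and 187 in P6 DMSO, and 269, 172 and 165 in P6 CompE. Cdk2, the S phase kinase, was at 88.8, 56.7, 48.2 and 51.5 in P0 DMSO, 63.9, 48.8, 48.5 and 54.7 in P0 CompE, 54.7, 51.5 and 46.1 in P6 DMSO, and 57.2, 44.3 and 50.7 in P6 CompE. Neither kinase separated any pair of groups of the same age or the same treatment. Rrm1, the large subunit of ribonucleotide reductase, was at 27.2, 31.6, 26.4 and 29.8 in P0 DMSO, 25.8, 25.4, 25.8 and 28.9 in P0 CompE, 23.6, 42.5 and 37.9 in P6 DMSO, and 39.2, 34.9 and 37.6 in P6 CompE. E2f1, an activating E2F factor, was at 5.52, 7.51, 13.9 and 15.9 in P0 DMSO, 3.96, 9.94, 12.2 and 8.24 in P0 CompE, 4.25, 3.89 and 5.99 in P6 DMSO, and 2.98, 5.92 and 7.32 in P6 CompE. Rrm1 was even among P0 libraries and lowest in 1 P6 DMSO library, whereas E2f1 already ranged from 5.52 to 15.9 RPM within P0 DMSO. The highest in P0 DMSO of the 8 genes for mitotic kinases, checkpoint and the anaphase-promoting complex was the spindle kinase gene Aurka, at 3.61 ± 0.779 RPM (SD, n = 4), and of the 6 for mitotic chromosomes and motors it was Cenpa, the centromeric histone, at 5.23 ± 1.30 RPM. Aurka was at 4.16, 4.08, 2.48 and 3.71 RPM in P0 DMSO, 3.26, 3.24, 2.74 and 3.47 in P0 CompE, 3.05, 2.92 and 2.11 in P6 DMSO, and 4.10, 1.64 and 2.40 in P6 CompE. Cenpa was at 6.96, 4.96, 3.81 and 5.19 RPM in P0 DMSO, 6.53, 7.06, 5.31 and 6.25 in P0 CompE, 3.88, 3.17 and 2.62 in P6 DMSO, and 4.97, 3.69 and 2.84 in P6 CompE. Both overlapped between CompE and DMSO at each age, and the Cenpa levels of the CompE libraries at P6 all lay below those at P0.

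At P0, 1 of the 44 genes, Gmnn, was lower after Notch inhibition, and no other was called. Geminin is made from S phase to mitosis and holds back relicensing, and it also binds chromatin regulators in differentiating cells. Gmnn (chr13:24751845-24761937, minus strand, GRCm38) was at 23.2, 14.3, 9.27 and 12.2 RPM in the 4 P0 DMSO libraries and at 3.24, 5.61, 4.34 and 3.69 RPM in the 4 P0 CompE libraries. The highest CompE value lay below the lowest DMSO value, and CompE was lower in all 4 replicate pairs. The log2 fold change was -1.83 (95% interval -2.48 to -1.17, edgeR quasi-likelihood test with Benjamini-Hochberg adjustment over 15937 genes, adjusted p = 0.00772, n = 4 and 4). Genes were called where the adjusted p did not exceed 0.01 and the levels differed 2-fold or more. By that rule 1 of 44 genes was called, against 1.22% of all genes tested (0.985% lower and 0.238% higher). With the replicate pairs as a block the change was -1.79 (edgeR, adjusted p = 0.00738; again 1 of 44 genes, background 2.20%). The call was near its limit. Leaving out any single library other than P0 DMSO 3 raised the edgeR adjusted p above 0.01, to at most 0.0370, while the log2 fold change stayed between -2.0 and -1.57. Reads of Gmnn numbered 109 to 149 in CompE and 292 to 613 in DMSO. P0 DMSO 1, which had the highest Gmnn level, had an SC marker sum within the range of P0 CompE, and without it the change was -1.57 (edgeR, adjusted p = 0.0104). The part of the SC markers in the Gmnn levels was not tested.

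The partners of Gmnn in licensing showed no such change. Cdt1, the protein that geminin binds, was at 2.38, 1.68, 2.41 and 2.66 RPM in P0 DMSO and 2.36, 1.91, 2.36 and 3.31 RPM in P0 CompE, overlapping groups with a log2 fold change of 0.09 (95% interval -0.53 to 0.71). Cdc6, the other loader, changed by -0.46 (-1.39 to 0.48). Cdt1, Cdc6, Ccnd3, Pcna and other genes outside the named set were singled out after their values were seen. Mcm2, a helicase subunit, was at 28.0, 43.2, 20.9 and 38.3 RPM in P0 DMSO, 34.0, 26.6, 33.3 and 39.8 in P0 CompE, 24.6, 20.9 and 11.5 in P6 DMSO, and 15.6, 13.2 and 12.9 in P6 CompE. At P0 its groups overlapped (log2 fold change -0.01, -0.51 to 0.49). The summed level of Mcm2 to Mcm7 was 92.5 to 139 RPM in P0 DMSO and 109 to 139 RPM in P0 CompE. The log2 fold changes of the 6 helicase genes lay between -0.33 (Mcm6) and 0.24 (Mcm5), and that of Pcna was 0.04 (-0.39 to 0.48).

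**Figure D2:**
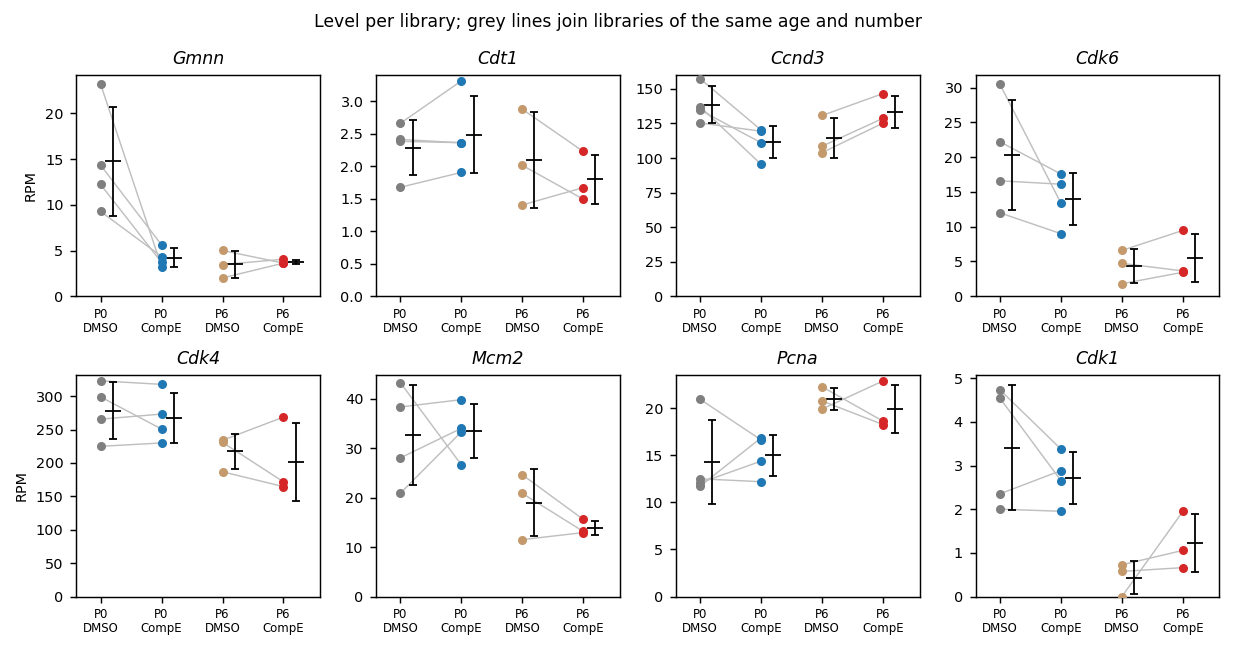
RPM of 8 genes in every library, 1 panel a gene, with P0 DMSO, P0 CompE, P6 DMSO and P6 CompE from left to right; points are libraries, grey lines join libraries of the same age and replicate number, and bars are mean ± SD (n = 4 at P0, n = 3 at P6). Gmnn was at 9.27 to 23.2 RPM in P0 DMSO and at 2.00 to 5.61 RPM in the other 3 groups, whereas Cdt1 overlapped in all 4.

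Among the G1 genes at P0 the clearest difference was in Ccnd3, the D cyclin with the highest level. Ccnd3 was at 137, 125, 135 and 157 RPM in P0 DMSO, 95.4, 119, 111 and 120 in P0 CompE, 131, 104 and 109 in P6 DMSO, and 147, 125 and 129 in P6 CompE. At P0 the groups did not overlap and CompE was lower in 4 of 4 pairs, but the log2 fold change of -0.35 (-0.63 to -0.06) did not pass adjustment (edgeR, adjusted p = 0.240, and 0.0758 with the block). Gmnn and Ccnd3 were the 2 members of 44 with separate groups and lower values under CompE (4.55%, against 4.69% of 16548 genes), and no member was separate and higher (background 5.02%). Cdk6, the second G1 kinase, was at 12.0, 30.5, 16.6 and 22.2 RPM in P0 DMSO, 9.00, 13.4, 16.1 and 17.6 in P0 CompE, 6.59, 1.80 and 4.73 in P6 DMSO, and 9.47, 3.45 and 3.64 in P6 CompE. It was lower with CompE in 4 of 4 P0 pairs, with overlapping groups and a log2 fold change of -0.58 (-1.30 to 0.13, edgeR, adjusted p = 0.511). Ccnd1, the D cyclin induced by growth signals, was at 8.17, 37.4, 21.8 and 33.1 RPM in P0 DMSO, 30.7, 24.4, 30.6 and 22.6 in P0 CompE, 13.8, 9.07 and 25.0 in P6 DMSO, and 9.35, 4.25 and 15.8 in P6 CompE. Its P0 difference of 0.04 (-0.82 to 0.90) was smaller than the spread within DMSO, where replicate 1 was far below the others. Over the pairs, 5 members were lower with CompE in all 4 (Gmnn, Ccnd3, Cdk6, Mcm6 and Rrm1, 11.4% against 11.6% of all genes) and 2 were higher in all 4 (Cdc20 and Plk1, 4.55% against 17.1%).

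The genes of mitosis did not pass the test at P0 in either direction. Mki67 was at 0.605, 0.451, 0 and 0.756 RPM in P0 DMSO, 0.608, 0.206, 0.292 and 0.253 in P0 CompE, 0, 0.144 and 0.170 in P6 DMSO, and 0, 0 and 0.0728 in P6 CompE, from at most 27 reads in a library. Top2a, a topoisomerase of dividing cells, was at 4.81, 2.95, 1.81 and 6.38 RPM in P0 DMSO, 5.02, 2.94, 3.32 and 4.89 in P0 CompE, 3.34, 3.21 and 1.21 in P6 DMSO, and 1.59, 0.418 and 2.19 in P6 CompE. Cdk1, the kinase that starts mitosis, was at 4.54, 2.35, 2.00 and 4.73 RPM in P0 DMSO, 2.66, 2.88, 1.95 and 3.38 in P0 CompE, 0, 0.576 and 0.728 in P6 DMSO, and 1.95, 0.662 and 1.06 in P6 CompE. All 3 overlapped between treatments at P0, and their log2 fold changes were -0.42 (-2.18 to 1.35), -0.01 (-0.83 to 0.81) and -0.35 (-1.09 to 0.39). Of the 8 genes for mitotic kinases, checkpoint and the anaphase-promoting complex, 5 were above 0 and 3 below, with Bub1 at 1.48 (-0.74 to 3.69), and of the 6 for mitotic chromosomes and motors 3 were on each side. Over all 44 genes, 22 log2 fold changes were above 0 and 22 below (51.1% of all genes were above), and their median was -0.00 against 0.01 for all genes tested. For 22 of the 44 the 95% interval lay wholly within 2-fold in either direction (29 with the block), so for the others a 2-fold difference was within the interval or exceeded. The pairs did not lean one way, with a median member difference between -0.12 and 0.23 (log2, pseudocount 0.5 RPM) in the 4 pairs.

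**Figure D3:**
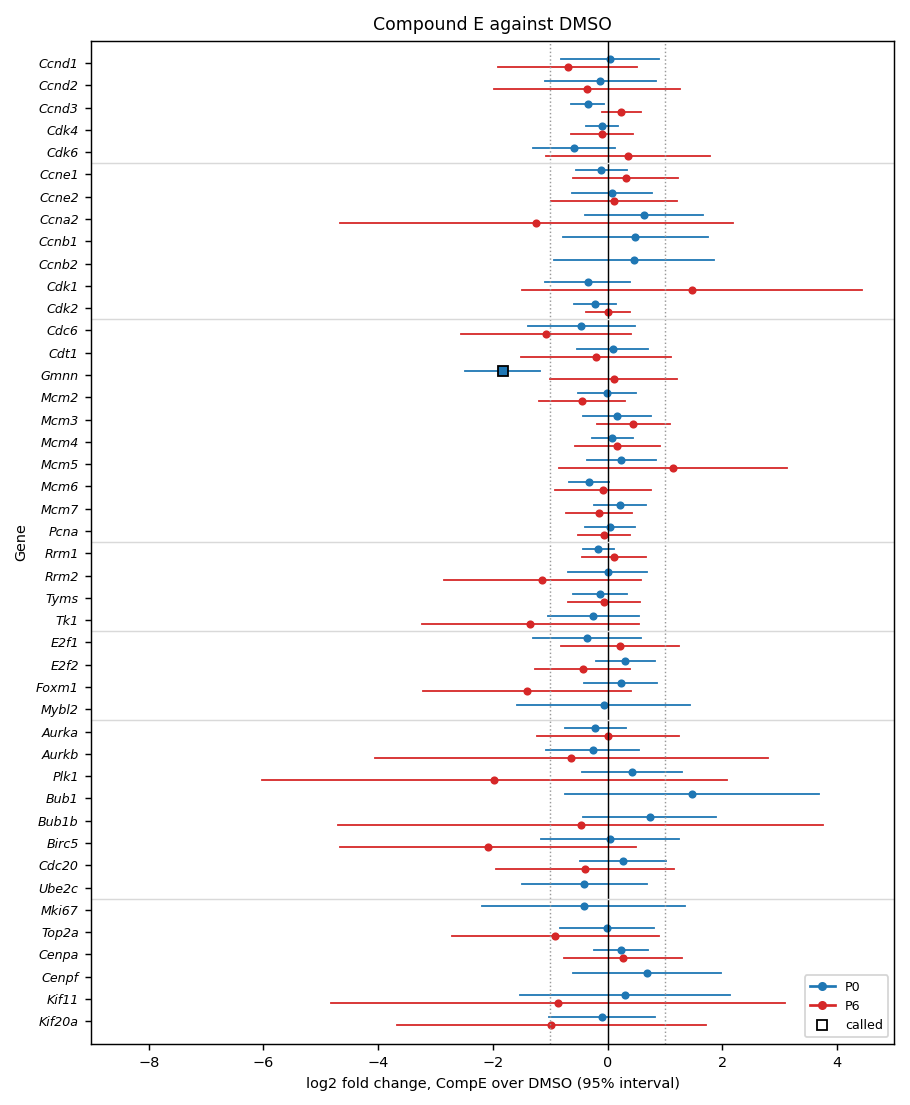
Log2 fold change of CompE over DMSO with its 95% interval for each gene at P0 (blue, 44 genes) and at P6 (red, 37 genes tested); dotted lines mark 2-fold and a square marks a call. Gmnn at P0, at -1.83, was the only square, and the P6 intervals of the mitotic genes in the lower rows were wide.

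At P6 no cell cycle gene passed the test for Notch inhibition. Of the 44, 37 had enough reads to be tested at P6; Bub1, Ccnb1, Ccnb2, Cenpf, Mki67, Mybl2 and Ube2c did not. None was called by edgeR, against 0% of 15322 genes (0 calls), and 289 genes (1.89%) but 0 members had an unadjusted p under 0.05. DESeq2 called 0 members as well (background 0.0720%). Gmnn was at 2.00, 5.01 and 3.47 RPM in P6 DMSO and 3.62, 3.62 and 4.04 RPM in P6 CompE, overlapping groups with a log2 fold change of 0.11 (-1.0 to 1.22). The log2 fold change of Cdk4 was -0.10 (-0.64 to 0.43), that of Mcm2 -0.45 (-1.20 to 0.30) and that of Cdk1 1.47 (-1.49 to 4.44), the last with 0 reads in P6 DMSO 1. Ccnd1 was lower with CompE in 3 of 3 pairs, and its change of -0.76 with the replicate pairs as a block missed the threshold (edgeR, adjusted p = 0.555). The D cyclin Ccnd3 was higher in 3 of 3 P6 pairs, by 0.16 to 0.27 on the log2 scale.

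Over the 37 genes at P6, 14 log2 fold changes were above 0 and 23 below (50.2% of all genes were above), with a median of -0.15 against 0.00 for all genes. The helicase gene Mcm5 was higher in every CompE library than in every DMSO library (2.7% of members, background 3.06%), and Cdc6 and Tk1, thymidine kinase, were lower in every CompE library (5.41%, background 4.12%). In all 3 pairs 9 members were lower (24.3% against 17.0% of genes) and 5 were higher (13.5% against 15.8%). The intervals at P6 were wide, with 9 of 37 lying wholly within 2-fold. The biological coefficient of variation was 46.7% at P6 and 27.2% at P0.

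With age, in the DMSO-treated SCs, Gmnn and Cdk6 fell. These were 2 of 44 genes, both lower at P6 (4.55%, against 7.12% of 17090 genes called in both directions and 3.38% lower and 3.74% higher). The log2 fold change of Gmnn was -1.97 (-2.77 to -1.18, edgeR, adjusted p = 0.00215), and every P6 DMSO library was below every P0 DMSO library. This comparison shares the P0 DMSO libraries with the treatment comparison above. Cdk6 (chr5:3341004-3531008, plus strand) changed by -2.18 (-3.24 to -1.11, edgeR, adjusted p = 0.00699), at 12.0 to 30.5 RPM in P0 DMSO and 1.80 to 6.59 RPM in P6 DMSO. The Cdk6 window shown above, without any of the letters searched, lies inside this span. The sequence before the first base of the span was not searched. The Gmnn call held without each of the 14 libraries in turn, at an edgeR adjusted p of at most 0.00969. The Cdk6 call was lost without any of 8 libraries (P0 CompE 2, 3 or 4, P0 DMSO 2, 3 or 4, P6 DMSO 2 or 3), at an edgeR adjusted p of up to 0.0292, and 2 predicted genes lie on its other strand, whose reads may not be separable. Fitted on the 7 DMSO libraries alone, neither gene was called (edgeR, adjusted p = 0.0158 for Gmnn and 0.0191 for Cdk6). DESeq2 called both and also Cdk1, at -2.85 (DESeq2, adjusted p = 0.000148; 3 of 44 genes, background 11.3%).

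At an adjusted p of at most 0.05 with no limit on size, 3 further genes passed in DMSO, for 5 of 44 against 22.5% of genes. Cdk1 was at -2.84 (edgeR, adjusted p = 0.0224) and Mybl2, a factor of late cell cycle genes, at -3.50 (edgeR, adjusted p = 0.0476). Pcna was higher at P6, by 0.64 (edgeR, adjusted p = 0.0297), with 20.9, 11.7, 12.1 and 12.5 RPM in P0 DMSO, 16.6, 16.8, 14.4 and 12.2 in P0 CompE, 19.9, 22.3 and 20.7 in P6 DMSO, and 22.9, 18.6 and 18.2 in P6 CompE. In DMSO its groups overlapped through the first P0 library. Mybl2 rested on 0, 0 and 6 reads at P6, so its size is uncertain. It was 1 of 7 genes (with Bub1, Ccnb1, Ccnb2, Cenpf, Mki67 and Ube2c) that did not reach 10 counts in 3 libraries at P6 and entered the age tests through P0, with 10 counts in 4 to 8 of its libraries. That filter favoured a fall of these genes. The counts of separate groups and of directions with age below are therefore over the other 37. Their background is the 15038 genes with 10 counts in 3 libraries of each age. In DMSO, groups were separate and lower at P6 for 6 of these genes (Gmnn, Cdk6, Cdk1, Mcm6 and the mitotic genes Aurkb and Kif20a, 16.2% against 18.3% of genes) and separate and higher for 0 (background 13.3%). Their median was -0.27 against -0.02 for all such genes, with 24 below 0 and 13 above (48.9% of all such genes were above). Of the 10 mitotic genes among them, 8 were below 0 and 2, Bub1b at 0.70 and Plk1 at 0.24, above.

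In CompE-treated SCs the age difference gave no call in edgeR (0 of 44, background 6.43%, with 3.54% higher and 2.89% lower). At an adjusted p of at most 0.05, 5 of 44 genes passed, against 22.0% of genes. At an unadjusted p under 0.05, 20 of 44 did (5 higher and 15 lower), against 35.7%. Bub1, Ccnb1, Ccnb2, Cenpf, Mki67 and Mybl2 were among those 15, and the filter favoured their fall. Lower at P6 at the former threshold were Mcm2 at -1.13 (-1.75 to -0.51, edgeR, adjusted p = 0.0130), Tk1 at -1.75 (edgeR, adjusted p = 0.0295), Cdc20, an activator of the anaphase-promoting complex, at -1.29 (edgeR, adjusted p = 0.0473), and the mitotic cyclin gene Ccnb2 (edgeR, adjusted p = 0.0297), which had 0, 0 and 3 reads at P6. Rrm1 was higher by 0.63 (0.24 to 1.01, edgeR, adjusted p = 0.0236). DESeq2 placed Ccnb2, Cdc20, Mcm2 and Tk1 past the stricter rule (background 10.4%). Of the 37 genes with enough reads at both ages, 26 were below 0 and 11 above (50% of all such genes were above), with a median of -0.43 against -0.00 for all such genes. All 10 mitotic genes among them were below 0, with medians of -1.72 over the 6 for kinases, checkpoint and the anaphase-promoting complex and -1.53 over the 4 for chromosomes and motors, where the same genes in DMSO had medians of -0.25 and -0.57. The other 4, Bub1, Ube2c, Cenpf and Mki67, were also below 0, which the filter favoured, and Bub1 and Mki67 had at most 2 reads in any P6 CompE library. Groups were separate and lower at P6 for 13 of the 37 (35.1% against 24.8% of genes), 8 of them mitotic, and separate and higher for 3 (Ccnd3, Pcna and Rrm1, 8.11% against 14.1%). For Gmnn the age difference in CompE was -0.04 (-0.79 to 0.72). The DMSO and CompE age comparisons have no library in common but were fitted with 1 shared estimate of the spread.

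**Figure D4:**
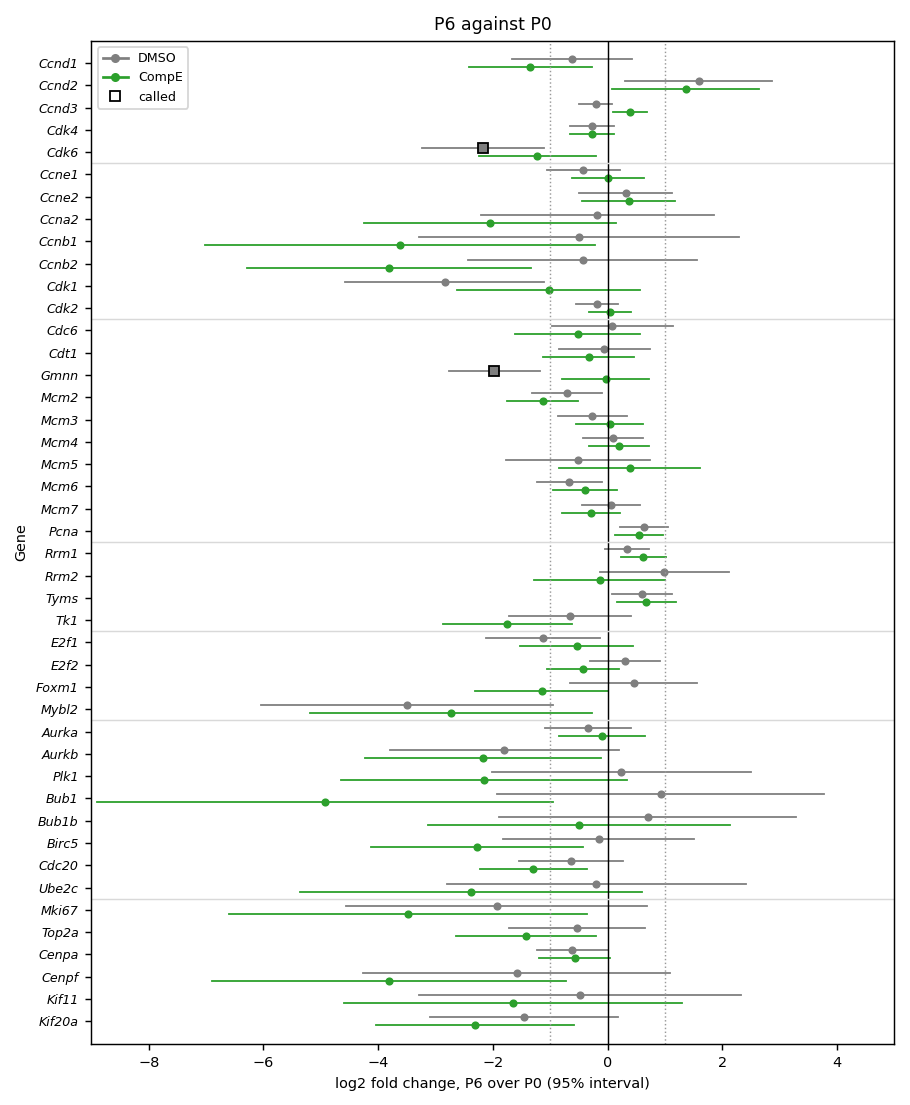
Log2 fold change of P6 over P0 with its 95% interval for each of the 44 genes in DMSO (grey) and in CompE (green); dotted lines mark 2-fold and squares mark calls. Gmnn (-1.97) and Cdk6 (-2.18) in DMSO were the only squares. Of the 14 mitotic genes at the bottom all lay left of 0 in CompE, 4 of them favoured by the filter on low counts, and 11 did in DMSO, where Bub1, Bub1b and Plk1 lay right of it.

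The mitotic genes were also summed to limit the noise of single low counts (18 genes, the 14 above with Ccna2, Ccnb1, Ccnb2 and Cdk1). Their summed level was 38.9, 27.8, 19.4 and 39.6 RPM in P0 DMSO, 38.8, 31.9, 30.7 and 37.4 in P0 CompE, 11.9, 26.7 and 19 in P6 DMSO, and 14.8, 10.8 and 16.9 in P6 CompE. In CompE every P6 library was below every P0 library. The sums include Bub1, Ccnb1, Ccnb2, Cenpf, Mki67 and Ube2c, whose fall with age the filter favoured. In DMSO the groups overlapped, because P6 DMSO 2 was higher than P0 DMSO 3. The library with the highest mitotic sum at P6 (P6 DMSO 2) had the lowest macrophage marker sum at P6, 1.62 RPM. Within P6 CompE the highest mitotic sum and the highest macrophage sum (77.2 RPM) were both in replicate 3. The part of other cell types in the mitotic levels was not tested. The summed helicase genes were at 87.9 to 95.1 RPM in P6 DMSO and 79.6 to 114 RPM in P6 CompE, and both ranges overlapped those at P0.

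**Figure D5:**
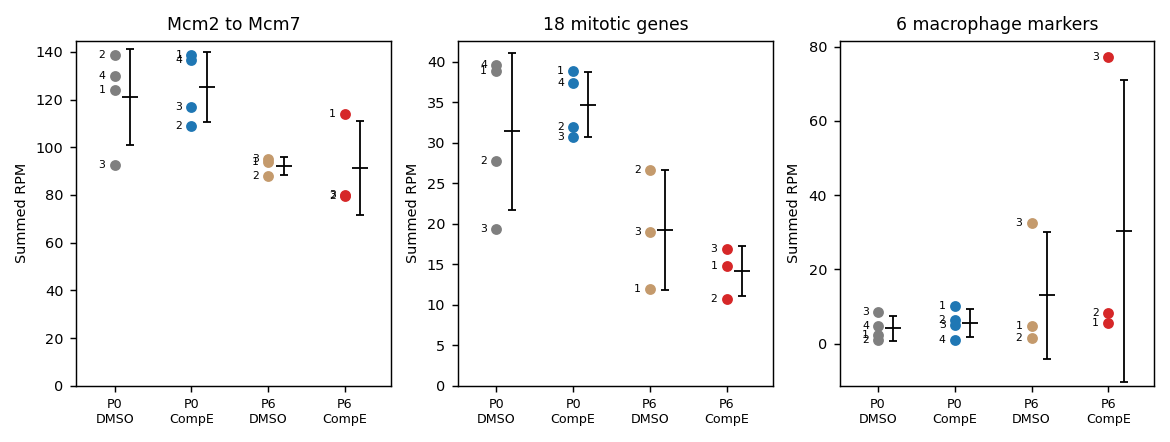
Summed RPM of Mcm2 to Mcm7 (left), of the 18 mitotic genes (middle) and of 6 macrophage marker genes (right) in each library, labelled by replicate number, with mean ± SD beside the points. The mitotic sums of P6 CompE (10.8 to 16.9 RPM) lay below all those of P0 CompE (30.7 to 38.8 RPM), and the macrophage sum was highest in replicate 3 of both P6 groups. The mitotic sums include genes whose fall with age the filter favoured.

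Whether the effect of compound E differed between P0 and P6 was tested as an interaction in all 14 libraries. No member passed (0 of 44, background 0% of 17090 genes by edgeR, with 5 members and 4.75% of genes at an unadjusted p under 0.05). DESeq2 called 0 members (background 0.200%), and edgeR with the replicate block 0 (background 0.0936%). For Gmnn the effect at P6 minus that at P0 was 1.94 on the log2 scale (0.86 to 3.01, edgeR, adjusted p = 0.484, and 2.00 with an adjusted p of 0.149 with the replicate block). The Gmnn effects at P0 and P6 were therefore not shown to differ after adjustment over all genes. For Ccnd3, lower in all P0 pairs and higher in all P6 pairs, the difference was 0.60 (0.19 to 1.01, edgeR, adjusted p = 0.735, and 0.109 with the block). Intervals of 7 of the 44 genes lay wholly within 2-fold, and those of the other 37 reached it.

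Of the inhibitors of these kinases, Cdkn1c fell with age, and Cdkn1b differed with CompE at P0 by less than the fold required for a call. Of 7 such genes, Cdkn2a was at 0 counts in all 14 libraries and 6 were tested. Cdkn1b encodes p27, which keeps SCs and HCs out of the cycle, and was at 58.8, 61.8, 61.7 and 51.8 RPM in P0 DMSO and 33.8, 43.9, 39.7 and 30.5 RPM in P0 CompE. The groups were separate, and the log2 fold change of -0.70 (SE 0.15) had an edgeR adjusted p of 0.0282 and of 0.00349 with the block, but was under 2-fold. Cdkn1a, which encodes p21, was at 200, 160, 305 and 208 RPM in P0 DMSO and 354, 342, 385 and 414 RPM in P0 CompE, also separate groups, with a log2 fold change of 0.74 (SE 0.19) and an edgeR adjusted p of 0.0731 (0.0128 with the block). With age, Cdkn1c, which encodes p57, fell from 160 ± 58.1 RPM (SD, n = 4) to 28.4 ± 9.37 RPM (n = 3) in DMSO (log2 -2.42, edgeR, adjusted p = 0.000302) and from 183 ± 41.7 to 46.6 ± 23.8 RPM in CompE (-1.85, edgeR, adjusted p = 0.00172). At P6 none of the 6 was called for CompE against DMSO, where 0% of all genes were. Cdkn1a was at 357, 419 and 428 RPM in P6 DMSO and 458, 515 and 541 RPM in P6 CompE. These P6 groups were separate, with CompE higher (3.06% of all genes). Each also lay above the P0 group of the same treatment (13.3% of all genes in DMSO and 14.1% in CompE).

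Other genes of the same phases, from lists of known S phase genes and known G2 and M phase genes without the 44, gave no call for CompE against DMSO, and with age they gave calls at shares near those of all genes or above. For CompE against DMSO, 0 of 28 S phase genes and 0 of 38 G2 and M phase genes were called at P0, with medians of 0.13 and 0.05, and 0 of 28 and 0 of 34 at P6. Between P0 and P6 in DMSO 3 of 30 S phase genes were called (10%, 2 higher, Prim1 and Pola1 of the primase complex, by 2.11 and 1.82, and 1 lower, Dtl, at -1.67), and 3 of 39 G2 and M phase genes (7.69%, Tubb4b, a tubulin, higher by 1.49, and Cks1b and Ckap2 lower, at -1.0 and -2.01), against 7.12% of all genes. In CompE 2 of 30 (6.67%, Prim1 higher and Dtl lower) and 4 of 39 (10.3%, 1 higher and 3 lower) were called, against 6.43% of all genes. The medians of the G2 and M phase list were -0.42 in DMSO and -0.50 in CompE, and those of the S phase list -0.07 and -0.15. Of 10 genes for the Rb family and other E2F and DP factors, 0 were called in any of these comparisons.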

How the data were processed

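RNA was measured with SMART-Seq v4 PLUS libraries without molecular identifiers. The authors trimmed reads with Trim Galore 0.6.0 and cutadapt 1.15, aligned them with STAR to mm10 (2.7.0f in the submitters' processing notes) and deposited raw counts per gene, 1 table for each age. Which gene annotation was counted, and whether with regard to strand, is not given in the sources used here. From those counts the 44 genes were taken by symbol. RPM were counts per 1000000 counts of the library, and RPKM used the longest coding transcript of the annotation.

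Tests used edgeR 4.0.16 in R 4.3.3 (TMM scaling, filterByExpr with a minimum count of 10, quasi-likelihood test, Benjamini-Hochberg adjustment over all genes, 95% intervals from the test's degrees of freedom), and were tested on simulated data. CompE was compared with DMSO within each age, and age and interaction were fitted in all 14 libraries. Replicate numbers mark a shared batch, except that P0 replicates 3 and 4 share one, and residuals of same-numbered libraries correlated (0.13 to 0.58). Alternatives were DESeq2 1.42.0, its size factors, no filter, another threshold, a replicate block, a batch term, other sets of libraries and leaving out libraries, of which leaving out both libraries of a number was added after the data were seen, as was the limit of age counts to genes with 10 counts in 3 libraries of each age.

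The members and lists were chosen with earlier results of these data known. Each gene called in a comparison, the gene with the highest RPM in P0 DMSO of each role, and Mki67, Top2a, Ccnd1 and Cdk1 were named with the value in every library, and any other gene named was picked after its values were seen. Counting error alone sets the floor of 3 counts. Samples were grouped by the labels, and none was left out.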

Additional observations from a re-analysis of the deposited data

Results flagged for a closer look

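In groups of 4 libraries, 4 of 88 gene and group combinations held a library whose distance from the others passed Dixon's 95% limit, and chance alone flags about 4.4. In P0 CompE 4, Ccne2, a cyclin E gene, was at 4.61 RPM against 2.77 to 2.94 in the other 3 libraries, and Rrm1 was at 28.9 RPM against 25.4 to 25.8. In P0 CompE 1, Kif20a, a motor of cytokinesis, was at 3.98 RPM against 1.24 to 1.52. In P0 DMSO 1, Pcna was at 20.9 RPM against 11.7 to 12.5.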

How the results depend on the processing

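The replicate block changed no call among the cell cycle genes (1 at P0, 0 at P6 and 0 in the interaction). The P0 count of 1 was 0 to 1 when single libraries were left out, and 0 when both libraries of number 1, 2, 3 or 4 were, which leaves 3 pairs. The count of 2 between P0 and P6 in DMSO was 3 by DESeq2 (with Cdk1), 1 to 2 without single libraries, 0 in the 7 DMSO libraries alone, 5 at an adjusted p of at most 0.05 without the fold limit, and 1 without both P0 libraries of number 2, 3 or 4 or both P6 libraries of number 2 (Gmnn each time) or of number 3 (Cenpf). The count of 0 in CompE was 4 by DESeq2, 1 in the 7 CompE libraries alone (Mcm2), 5 at an adjusted p of at most 0.05, and 0 to 1 without single libraries. At P6 and in the interaction the count was 0 to 0. The cause of these differences was not tested beyond the libraries and limits named. In 89 settings, DESeq2 for the age count in DMSO among them, the counts stayed within 1.5 times, and in 30 settings they did not. The 89 include counts of 0 that stayed at 0. No result reversed. Low counts of the mitotic genes and 3 libraries a group at P6 limit what these data can show.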
